A study of Rattus norvegicus with 6 samples.

Results

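The miR-30 family 5p miRNAs, miR-30a-5p, miR-30b-5p, miR-30c-5p, miR-30d-5p and miR-30e-5p, are 5 of the 763 mature miRNAs listed in a small RNA sequencing table of exosomes from rat mesenchymal stem cells (MSCs). They were chosen by name, as the entries that carry exactly one of these 5 names once any species prefix is removed. The choice was made with earlier results of these data known, so tests of the members are not those of an unselected set. Exosomes were sequenced in 3 replicates from MSCs given nicorandil at 200 µM for 24 h beforehand, and in 3 replicates from untreated MSCs. All 6 came from cells labelled RBMSC with the genotype WT, and the exosomes were taken from the culture supernatant with an isolation reagent. Nicorandil is used against angina, and acts both as a potassium channel opener and as a nitric oxide donor. Whether replicates were grown as separate cultures is not stated in the labels, so the p-values given here measure only the spread between these 6 samples, and that spread may be technical.

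A miRNA guides Argonaute proteins to messenger RNAs, and its seed, the stretch of bases near the 5′ end, carries most of the target recognition. The miR-30 5p miRNAs share 1 seed and are therefore predicted to bind largely the same messenger RNAs, while they are made from separate genes. The family is known for effects on autophagy, on the extracellular matrix of the heart and on the choice of MSCs between the osteoblast and adipocyte fates.

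RefSeq sequences of the GRCr8 assembly were matched for 3 of the 5 members, and they are shown because the comparison rests on miRNAs with 1 seed and different 3′ parts. Capitals mark the seed, bases 2 to 8 counted from the 5′ end.

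miR-30a-5p: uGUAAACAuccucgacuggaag
miR-30c-5p: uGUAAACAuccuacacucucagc
miR-30e-5p: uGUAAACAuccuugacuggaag

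All 3 matched sequences carry the seed GUAAACA, and none differs from another before base 13. miR-30a-5p and miR-30e-5p are identical at 21 of 22 bases and differ by C13U, with the base of miR-30a-5p first and positions counted from 1 at the 5′ end. miR-30a-5p and miR-30c-5p differ at 5 of the 22 bases compared, C13A, G14C, G18C, G19U and A20C. The count of differences between miR-30c-5p and miR-30e-5p is also 5, namely A13U, C14G, C18G, U19G and C20A. One base separates miR-30a-5p from miR-30e-5p, and the sources used here do not say how mismatched reads were assigned. The split of reads between these members is therefore uncertain. No sequence was matched for miR-30b-5p or for miR-30d-5p, the most abundant member. Whether their reads are open to the same uncertainty could thus not be assessed. miR-384-5p carries the same seed and is listed with 0 reads in both groups.

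The mature miR-30a-5p lies at chr9:33233946-33233967 on the plus strand in Mir30a. miR-30c-5p is the product of a pair of genes with identical mature sequences, Mir30c1 at chr5:139634505-139634527 on the minus strand and Mir30c2 at chr9:33253695-33253717 on the plus strand, and its reads cannot be divided between them. The miR-30e-5p sequence lies at chr5:139637504-139637525 on the minus strand in Mir30e. Mir30a and Mir30c2 are 19670 bases apart on 1 strand of chromosome 9. Mir30c1 and Mir30e are 2906 bases apart on 1 strand of chromosome 5, and Mir30c1 lies within the bounds of Nfyc, which encodes a subunit of the transcription factor NF-Y.

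Depth was low and unequal between the groups. The nicorandil libraries held 16628, 16324 and 8426 miRNA reads and the untreated libraries 2224, 2212 and 2338. The authors' values are normalized read counts adjusted to 1 common library size. By the library scale alone, 1 read would be worth 0.375 to 0.771 in the nicorandil libraries and 1.93 to 2.17 in the untreated libraries. The adjustment is not proportional at few reads: 8 reads of miR-30c-5p became 2.23 in nicorandil replicate 1. In untreated replicate 2, 0 reads of miR-30b-5p became 0.109. With a count of 0, up to 3 reads remain possible, or 0.018% to 0.0356% of a nicorandil library and 0.128% to 0.136% of an untreated library. Reads were amplified without molecular identifiers, so these limits and all binomial or Poisson intervals cover counting error only. The difference in depth and the treatment cannot be told apart in this design. All 10 miRNAs of a list of MSC and mesenchymal markers had a read in at least 1 library. miR-31a-5p had 1 read, in nicorandil replicate 2 only, and miR-145-5p had 0 reads in each untreated library. On lists of other cell types, 6 of 7 blood cell, 6 of 8 epithelial, 3 of 4 liver and gut, 1 of 2 endothelial and 2 of 6 muscle miRNAs had a read. Across all miRNAs, 121 had a mean value of at least 1 and were tested with limma on log2(value + 1). At a Benjamini-Hochberg adjusted p under 0.05, 17 of them (14.0%) were higher and 9 (7.44%) lower after nicorandil, with a median log2 difference of 0.23 over all 121.

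Among the miR-30 miRNAs, miR-30d-5p, the most abundant member, was higher after nicorandil by 0.79 on the log2 scale, and miR-30c-5p was lower by 1.59. The level of miR-30a-5p averaged 11.45 ± 2.37 normalized reads in nicorandil exosomes and 11.7 ± 2.20 in untreated exosomes (SD, n = 3 each), while miR-30e-5p was at a few reads per library and did not pass the test. The family as a whole took 2.12% ± 0.140 of the miRNA reads in nicorandil libraries and 2.15% ± 0.260 in untreated libraries (SD, n = 3 each). Of the 5 members, 4 had a mean value of at least 1 and were tested; miR-30b-5p was not. One of these 4 passed in the higher direction and 1 in the lower, beside 14.0% and 7.44% of all tested miRNAs. In bulk RNA from exosomes, fewer vesicles carrying a miRNA and fewer copies per vesicle cannot be told apart.

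miR-30d-5p is a circulating miRNA that has been followed in human heart failure. Its normalized read counts were 104.2, 125.7 and 125.1 in the nicorandil libraries, against 54.2, 67.5 and 84.99 in the untreated libraries. Every nicorandil library stood above every untreated library, as was so for 17.4% of the 121 miRNAs tested. The means were 118 ± 12.2 in nicorandil exosomes and 68.9 ± 15.4 in untreated exosomes (SD, n = 3 each). limma gave a log2 fold change of 0.79 (SE 0.185, 95% interval 0.40 to 1.18) with a Benjamini-Hochberg adjusted p of 0.00586. For miR-30d-5p the authors' deposited table has 0.78 as log2 fold change and 0.000549 as unadjusted p.

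The rise of miR-30d-5p depended on the scale. Relative to library totals, miR-30d-5p took 1.69%, 1.94% and 1.92% of the miRNA reads in the nicorandil libraries and 1.21%, 1.40% and 1.80% in the untreated libraries. On this scale the groups overlapped, since untreated replicate 3 lay above nicorandil replicate 1. The read ratio on library totals was 1.24 (95% interval 1.01 to 1.55, from 759 reads after nicorandil and 100 in untreated libraries), and on the deposited scale 1.70 (1.38 to 2.12). Scaled to library totals, limma gave a log2 fold change of 0.34 with an adjusted p of 0.304. That scaling moved the median of all tested miRNAs by -0.35. Relative to the median of all tested miRNAs, miR-30d-5p was higher by 0.56 on the deposited scale and by 0.46 on library totals. It also missed the threshold under median-of-ratios scaling (0.57, limma adjusted p 0.104), in DESeq2 (0.55, adjusted p 0.171), in limma without an intensity trend (0.79, adjusted p 0.108) and without nicorandil replicate 2 (0.74, limma adjusted p 0.0763).

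Several MSC and mesenchymal miRNAs were higher after nicorandil, as miR-30d-5p was. Of the 9 tested on the list of 10, 5 were higher, beside 14.0% of all tested miRNAs, and none lower, beside 7.44%. The median log2 fold change of the 9 was 0.63 beside 0.23 for all tested miRNAs. The 5 were miR-143-3p (0.55), miR-21-5p (0.63), miR-100-5p (1.02), miR-10b-5p (0.68) and miR-145-5p. miR-145-5p had 16, 23 and 7 reads in the nicorandil libraries and 0 in each untreated library. It therefore reached the mean needed for testing through the nicorandil libraries alone (mean 6.89 beside 0). At the untreated depth, a count of 0 leaves up to 0.128% to 0.136% of a library possible, so the size of its change is not known. On library totals the median was 0.24 and miR-145-5p was the 1 miRNA of these still called. The summed share of the list, 27.6% to 32.3% of the nicorandil libraries and 28.2% to 29.2% of the untreated libraries, overlapped between the groups. The part of these miRNAs' change in that of miR-30d-5p was not tested.

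miR-30c-5p is known to repress connective tissue growth factor in heart cells, shown in rat and mouse. The normalized read counts of miR-30c-5p were 2.23, 7.12 and 4.60 in the nicorandil libraries, against 12.4, 20.0 and 13.2 in the untreated libraries. All nicorandil libraries lay below all untreated ones, a pattern held by 10.7% of the 121 miRNAs tested. Averages stood at 4.65 ± 2.45 in nicorandil exosomes and 15.2 ± 4.16 in untreated exosomes (SD, n = 3 each). miR-30c-5p fell by 1.59 on the log2 scale (SE 0.449, 95% interval of the log2 fold change -2.54 to -0.64, limma adjusted p 0.0185). In the authors' deposited table the log2 fold change is -1.69 with an unadjusted p of 0.000978.

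The fall of miR-30c-5p rests on few reads, 8, 16 and 6 in the nicorandil libraries and 6, 10 and 6 in the untreated libraries. As a share of miRNA reads it took 0.0481%, 0.0980% and 0.0712% of the nicorandil libraries, against 0.270%, 0.452% and 0.257% of the untreated libraries. These shares do not overlap either. The read ratio on library totals was 0.223 (95% interval 0.125 to 0.406), and scaled to library totals limma gave a log2 fold change of -1.92 with an adjusted p of 0.0136. With a pseudocount of 10 the log2 fold change was -0.78 (limma adjusted p 0.0168). The call was lost in limma without an intensity trend (-1.59, adjusted p 0.0659). It was also lost without untreated replicate 2 (-1.39, limma adjusted p 0.0863), without nicorandil replicate 1 (-1.23, adjusted p 0.0753) and without nicorandil replicate 3 (-1.63, adjusted p 0.0832).

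Several miRNAs known from other cell types were lower after nicorandil, as miR-30c-5p was. The counts of called miRNAs on each list stand beside 7.44% lower and 14.0% higher among all tested miRNAs. Liver and gut miRNAs (3 of 4 on the list had a read) took 0.463% to 0.617% of the nicorandil libraries and 1.44% to 2.61% of the untreated libraries. All 3 were tested and were lower in limma, miR-194-5p by the most (-2.30), then miR-122-5p (-1.49) and miR-192-5p (-1.11). Endothelial miRNAs took 0.0301% to 0.0356% of the nicorandil libraries and 0.181% to 0.360% of the untreated libraries, with miR-126a-3p lower and miR-126a-5p at 0 reads. Of the 8 epithelial miRNAs, 2 were tested and 1 was lower, miR-200b-3p, while miR-200a-3p was not called (-1.49, limma adjusted p 0.203). miR-200b-3p had 1, 2 and 1 reads in the nicorandil libraries and 5, 2 and 4 in the untreated libraries. With a nicorandil mean of 0.60, it too was tested through the untreated libraries alone. The epithelial list took 0.0119% to 0.0361% of the nicorandil libraries and 0.226% to 0.385% of the untreated libraries, and miR-203a-3p and miR-203b-3p were at 0. Blood cell miRNAs took 0.263% to 0.415% of the nicorandil libraries and 0.678% to 0.854% of the untreated libraries. Of the 3 tested, 1 was lower, miR-486. Not called were miR-451-5p (-0.27, limma adjusted p 0.835) and miR-142-5p, which went the other way (0.36, limma adjusted p 0.86), and miR-150-5p was at 0. Muscle miRNAs took 0% to 0.0120% of the nicorandil libraries and 0% of the untreated libraries, and none of the 6 was tested. The part of these other cell types in the fall of miR-30c-5p was not tested.

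**Figure D1:**
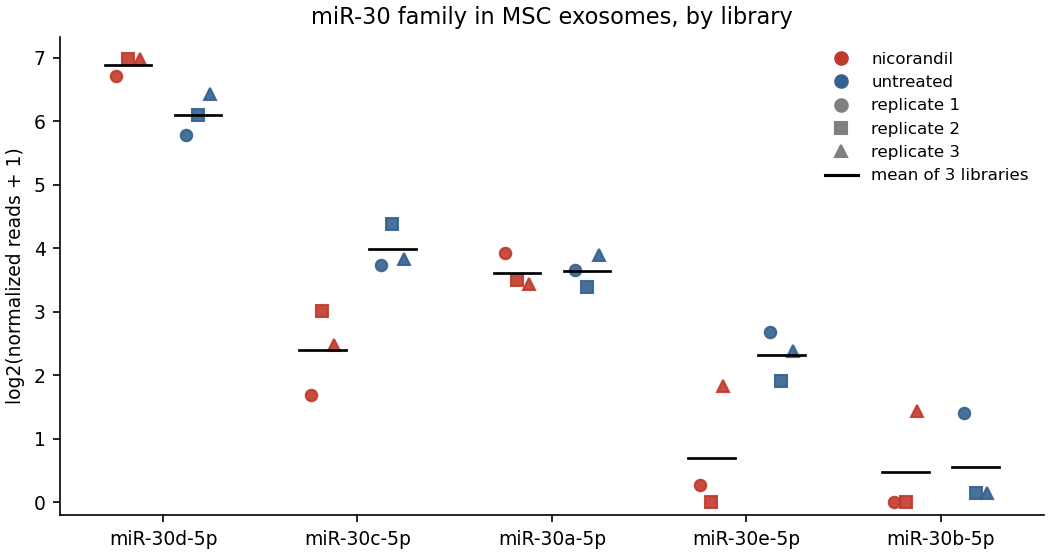
Normalized reads of the 5 miR-30 5p miRNAs on a log2(value + 1) axis, one point per library, with nicorandil libraries left of untreated libraries and bars for the group means of these log2 values. miR-30d-5p stood at 104.2 to 125.7 normalized reads in nicorandil libraries and 54.2 to 84.99 in untreated libraries, while miR-30c-5p stood at 2.23 to 7.12 and 12.4 to 20.0.

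miR-30a-5p represses the autophagy gene beclin 1, known from human cells. The normalized read counts for miR-30a-5p were 14.2, 10.3 and 9.85 in the nicorandil libraries, against 11.7, 9.52 and 13.9 in the untreated libraries. The groups overlapped. The log2 fold change was -0.03 (SE 0.353, 95% interval -0.78 to 0.71, limma adjusted p 0.955), so the interval spans changes in both directions. Its reads were 36, 27 and 13 in the nicorandil libraries and 6, 4 and 7 in the untreated libraries, and their ratio on library totals was 0.732 (95% interval 0.428 to 1.32).

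miR-30e-5p is known in the mouse to favour adipocyte over osteoblast differentiation. Its normalized read counts were 0.208, 0 and 2.56 in the nicorandil libraries, against 5.40, 2.77 and 4.24 in the untreated libraries. The groups did not overlap, with nicorandil replicate 3 just below untreated replicate 2. Of the 121 miRNAs tested, 10.7% lay lower without overlap. The test was not passed (log2 fold change -1.63, SE 0.686, 95% interval -3.08 to -0.18, limma adjusted p 0.114). The size depended on the pseudocount, with -3.24 at 0.1 and -0.38 at 10 (limma adjusted p 0.112 and 0.158). These values rest on 1, 0 and 3 reads in the nicorandil libraries and 3, 1 and 2 in the untreated libraries, a ratio on library totals of 0.109 (95% interval 0.0227 to 0.46). The threshold was passed in limma-voom (-3.13, adjusted p 0.0262) and without nicorandil replicate 3 (-2.19, limma adjusted p 0.0376). For miR-30e-5p the authors' deposited table has -2.55 with an unadjusted p of 0.0433.

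miR-30b-5p was close to absent from the reads. It had 0, 0 and 2 reads in the nicorandil libraries and 1, 0 and 0 in the untreated libraries, which is under the floor of 3 reads in each library, so no fold is given. In order of normalized level, untreated exosomes held miR-30d-5p, miR-30c-5p, miR-30a-5p, miR-30e-5p and miR-30b-5p, with miR-30c-5p and miR-30a-5p overlapping between libraries. In nicorandil exosomes miR-30a-5p came before miR-30c-5p, without overlap, while miR-30c-5p overlapped miR-30e-5p and miR-30e-5p overlapped miR-30b-5p.

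**Figure D2:**
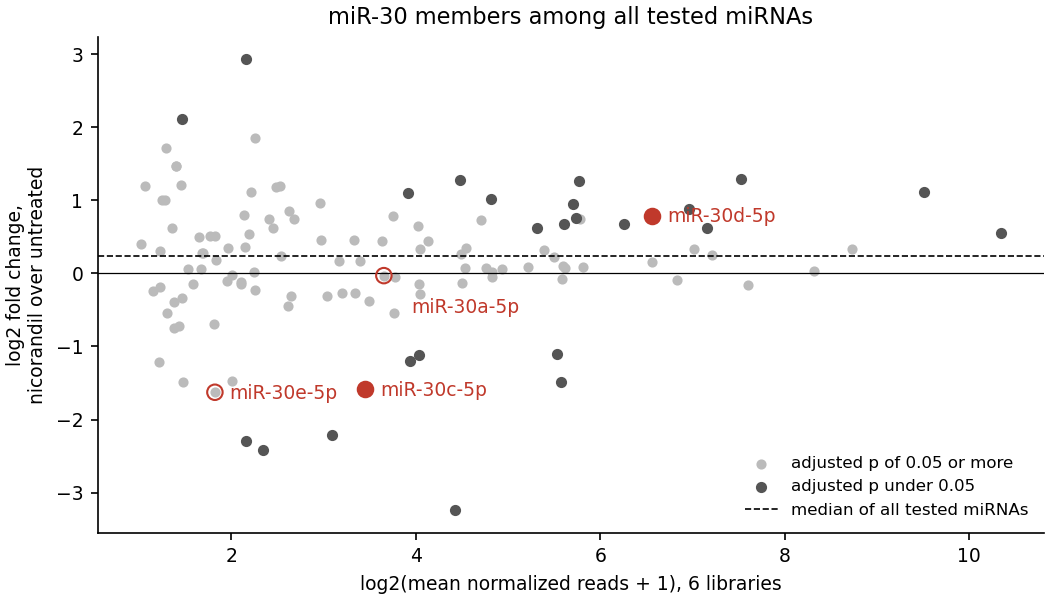
Log2 fold change, nicorandil over untreated, against mean normalized reads on a log axis for the 121 miRNAs tested, with the 4 tested miR-30 miRNAs named and the median of all (0.23) dashed. miR-30d-5p lay at 0.79, miR-30a-5p at -0.03, miR-30c-5p at -1.59 and miR-30e-5p at -1.63.

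Members that share the seed were compared inside each library, where the scale between libraries matters less, though the pseudocount still acts on members with few reads. The log2 difference of miR-30d-5p over miR-30c-5p was 5.03, 3.96 and 4.49 in the nicorandil libraries, against 2.04, 1.71 and 2.59 in the untreated libraries. The groups were well apart, by 2.38 between their means. Among the 6 pairs of tested members, 5 did not overlap between the groups, beside 26.7% of the pairs of all 121 tested miRNAs: miR-30d-5p over miR-30a-5p (0.82 between the means), over miR-30c-5p and over miR-30e-5p (2.42), and miR-30a-5p over miR-30c-5p (1.56) and over miR-30e-5p (1.60). The two-sided exact permutation test gave each of the 5 a p of 0.1, the smallest that 3 against 3 allows, and 0.12 after Benjamini-Hochberg adjustment over the 6 pairs. These pairs share members and so restate in part the same values. With pseudocounts of 0.1 and 10, miR-30d-5p over miR-30c-5p gave 2.60 and 1.499, miR-30a-5p over miR-30c-5p 1.77 and 0.77, miR-30d-5p over miR-30e-5p 4.04 and 1.09, and miR-30a-5p over miR-30e-5p 3.20 and 0.36, the last with an exact permutation p of 0.2. The pair miR-30c-5p over miR-30e-5p differed by 0.04 (exact permutation p 1) and overlapped.

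The composition of the family was described by each member's share of its reads. No share passed its test, and none could, since 0.1 is the smallest exact permutation p of 3 against 3. The test therefore cannot decide whether the composition differed. miR-30d-5p made up 86.2%, 88.0% and 87.1% of the miR-30 5p reads in the nicorandil libraries, against 62.8%, 67.4% and 73.7% in the untreated libraries. The share of miR-30c-5p was 2.45%, 4.46% and 3.23% in the nicorandil libraries, against 14.0%, 21.7% and 10.5% in the untreated libraries. Neither member's shares overlapped between the groups, and for each the two-sided exact permutation p was 0.1, or 0.167 after adjustment over the 5 members. The means differed by 19.15 percentage points for miR-30d-5p and by -12.0 for miR-30c-5p. Since the shares of a library sum to the whole, a higher share of miR-30d-5p lowers those of the other members together. The differences in share are therefore not separate observations. miR-30a-5p held 8.52% ± 2.20 of the family reads in nicorandil libraries and 11.6% ± 2.69 in untreated libraries (SD, n = 3 each; exact permutation p 0.2), with overlap. For miR-30e-5p the shares were 0.307%, 0% and 1.61% in the nicorandil libraries and 6.98%, 2.17% and 3.51% in the untreated libraries (exact permutation p 0.1, adjusted 0.167), also without overlap.

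**Figure D3:**
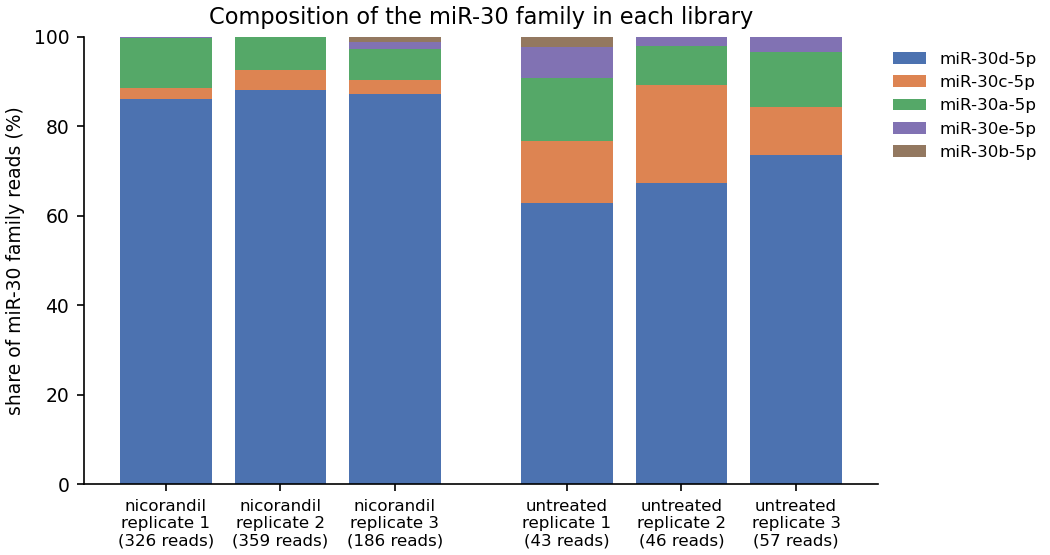
Share of each member in the miR-30 5p reads of each library, as stacked percentages, nicorandil libraries left and untreated libraries right. miR-30d-5p filled 86.2% to 88.0% of the nicorandil libraries and 62.8% to 73.7% of the untreated libraries.

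miR-30c-5p and miR-30d-5p, the members called in opposite directions in these data, were also set beside each other. This comparison restates those calls in part and is description only. Of the reads of both together, miR-30c-5p took 2.77%, 4.82% and 3.57% in the nicorandil libraries. In the untreated libraries it took 18.2%, 24.4% and 12.5%. The pooled share was 3.80% after nicorandil (exact 95% interval 2.58% to 5.38%, 30 reads beside 759 of miR-30d-5p) and 18.03% in untreated libraries (11.7% to 26.0%, 22 reads beside 100). There were thus 25.3 reads of miR-30d-5p for each read of miR-30c-5p after nicorandil and 4.55 in untreated libraries. The family total did not show this shift: summed, the 5 members held 1.96%, 2.20% and 2.21% of miRNA reads in the nicorandil libraries and 1.93%, 2.08% and 2.44% in the untreated libraries, which overlapped. In deposited units, which are scaled otherwise, the family summed to 120.8, 143.1 and 143.8 in the nicorandil libraries and 85.3, 99.9 and 116.5 in the untreated libraries, without overlap. Whether the family sums overlap between the groups thus rests on the scale.

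**Figure D4:**
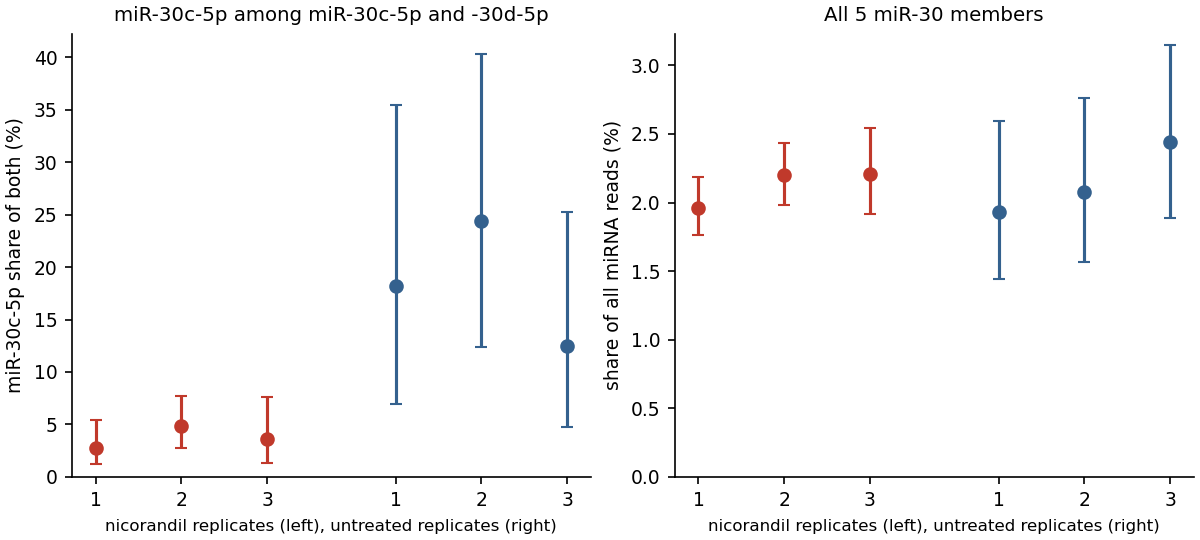
Left, miR-30c-5p as a percentage of the reads of miR-30c-5p and miR-30d-5p in each library with exact 95% intervals; right, the family as a percentage of all miRNA reads with Wilson 95% intervals. The left shares were 2.77% to 4.82% in nicorandil libraries and 12.5% to 24.4% in untreated libraries, and the right shares 1.96% to 2.21% and 1.93% to 2.44%.

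The spread among the miR-30 miRNAs was set beside that of other families. By RefSeq seed, 16 families had at least 2 tested members, with the miR-30 miRNAs kept together by name and 109 of the 121 tested miRNAs holding a reference sequence. The log2 fold changes of the miR-30 members spanned 2.42, against 1.56 for miR-26a-5p and miR-26b-5p, 1.39 for miR-148a-3p, miR-148b-3p and miR-152-3p, 1.38 for 8 let-7 miRNAs and at most 1.12 for the others. The miR-10 miRNAs, whose RefSeq entries start at different bases and so do not share a seed by this rule, were looked up after their values were seen. miR-10b-5p was higher (0.68, limma adjusted p 0.0188) and miR-10a-5p lower (-3.24, limma adjusted p 1.72e-05), 3.92 apart. Of the 16 families above, miR-30 was the 1 with calls both ways. By name, the miR-10 miRNAs had them too, so calls both ways were not particular to the miR-30 miRNAs, which were also grouped by name. The spread of miR-30e-5p and miR-30c-5p includes the counting error of few reads, and no difference in spread between families was tested. The lower end of the miR-30 span is miR-30e-5p, which was not called, and families differed in their number of tested members. Since the miR-30 miRNAs were chosen with earlier results of these data known, their place among the families is description only.

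Passenger strands, the 3p products of the same hairpins, had few reads. Of 6 listed, 5 had a read and 1 was tested, miR-30a-3p, which did not pass (1.00 on the log2 scale, SE 0.706, limma adjusted p 0.426). miR-30a-3p took 15 of the 91 reads of its hairpin after nicorandil (16.5%, exact 95% interval 9.53% to 25.7%) and 1 of 18 in untreated libraries (5.56%, 0.141% to 27.3%), intervals that overlap. miR-30d-3p had 0 reads beside 759 of miR-30d-5p after nicorandil and 100 in untreated libraries. The 2 passenger strands of the miR-30c genes, miR-30c-1-3p and miR-30c-2-3p, had 1 read each after nicorandil and 0 in untreated libraries, too few to tell the genes apart. miR-30e-3p had 3 reads beside 4 of miR-30e-5p after nicorandil (42.9% of its hairpin, exact 95% interval 9.90% to 81.6%) and 2 beside 6 in untreated libraries (25%, 3.19% to 65.1%).

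The miRNAs whose levels followed each member most closely are given by Pearson's r on log2(value + 1) over the 6 libraries, which share the treatment groups and the depth gap. miR-30d-5p was closest to miR-148a-3p (0.948) and miR-351-5p (0.944), and miR-30a-5p to let-7g-5p (0.897) and miR-708-3p (0.812). miR-30c-5p was closest to miR-192-5p (0.919) and miR-10a-5p (0.908), and miR-30e-5p to miR-486 (0.897) and miR-126a-3p (0.858). Between members, r was -0.69 for miR-30d-5p with miR-30c-5p, 0.65 for miR-30c-5p with miR-30e-5p and -0.07 for miR-30d-5p with miR-30a-5p.

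Other miRNAs that act on the osteoblast and adipocyte fates of MSCs were taken from a list of 24, of which 20 had a read and 9 were tested. Higher after nicorandil were 4 of the 9, beside 14.0% of all tested miRNAs, and lower none, beside 7.44%, with a median log2 fold change of 0.63 beside 0.23 for all tested miRNAs. They were miR-148a-3p (1.11), miR-143-3p (0.55), miR-21-5p (0.63) and miR-27a-3p (0.63, limma adjusted p 0.0467). Scaled to library totals the median was 0.17 and miR-148a-3p was the 1 miRNA of the list still called. Of 15 miRNAs known in fibrosis, 11 were tested: 1 was higher (beside 14.0% of all), miR-21-5p, 2 were lower (beside 7.44%), miR-192-5p (-1.11) and miR-200b-3p (-2.41), and miR-24-3p, the most abundant, had 0.03. The median of these 11 was 0.09 on the deposited scale and -0.31 on library totals, where miR-21-5p was no longer called and miR-24-3p was called lower. miR-21-5p stands on both lists, and miR-192-5p and miR-200b-3p are also on the lists of liver and gut and of epithelial miRNAs.

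**Figure D5:**
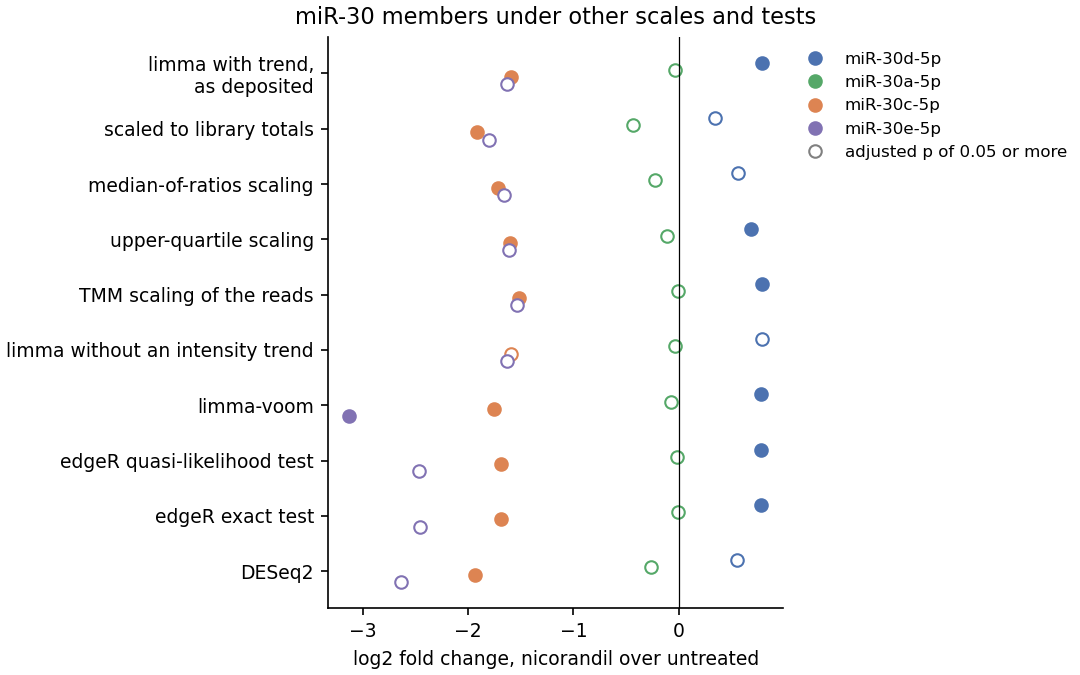
Log2 fold change, nicorandil over untreated, of the 4 tested miR-30 miRNAs under 10 scalings and tests, with filled points for an adjusted p under 0.05. miR-30c-5p stayed below 0 and miR-30d-5p above 0 in each, with miR-30d-5p at 0.34 on library totals and 0.79 on the deposited scale.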

How the data were processed

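The table that the authors deposited holds a normalized read-count signal for each miRNA in each library and, per the file headers, the authors' own log2 fold change with its p-value, not adjusted. FastQC, Bowtie and edgeR were used, per the submitters' processing notes, with versions, build and annotation not given in the sources used here. Deposited values of the signal have the form of edgeR pseudo-counts, adjusted to a common library size with a dispersion of 0.0272. Inverting it gave whole reads for 100% of the 763 miRNAs (relative tolerance 1e-05), and the reads gave back the deposited signal with differences of at most 4.8e-07. Shares, intervals and count tests use these reads.

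limma 3.58.1 (R 4.3.3), with an intensity trend, was run on log2(value + 1), where the pseudocount of 1 understates changes of low miRNAs, for the 121 miRNAs with a mean of at least 1, with Benjamini-Hochberg adjustment and a threshold of 0.05. The code was tested on simulated data. Pairs of members and shares were compared with two-sided exact permutation tests (SciPy 1.17.1). edgeR 4.0.16 and DESeq2 1.42.0 on the reads were alternatives, as were other scalings, filters, pseudocounts and leaving out each library. The 5 members are all named; in each list with tested miRNAs, the 2 most abundant of those tested and any that passed the test are named. Seed families and neighbours were named by largest spread and r, and the miR-10 miRNAs after their values were seen. The members and lists were chosen with earlier results of these data known. Untreated replicates 1 and 2 did not differ beyond the sampling noise (chi-square p 0.735), nor did 1 and 3 (0.154), while 2 and 3 did (0.0145). The untreated replicates were kept as 3 samples. Nicorandil replicates, which had more reads, differed beyond the sampling noise in each pair. The chi-square p was 3.33e-13 for 1 and 2, 2.31e-55 for 1 and 3 and 1.8e-57 for 2 and 3. Intervals on pooled reads do not cover this spread.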

Additional observations from a re-analysis of the deposited data

How the results depend on the processing

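Over the alternatives run, miR-30c-5p kept its direction in all and passed the threshold in 13 of 14 settings and 3 of 6 fits that leave out a library. miR-30d-5p also kept its direction and passed in 11 of 15 and 5 of 6. Settings that ended or made a call were library totals (miR-30d-5p 0.34), median-of-ratios scaling (miR-30d-5p 0.57), DESeq2 (miR-30d-5p 0.55), limma without an intensity trend (miR-30d-5p 0.79, miR-30c-5p -1.59) and limma-voom (miR-30e-5p -3.13). Leaving out 1 library gave log2 fold changes of 0.63 to 0.95 for miR-30d-5p, -1.90 to -1.23 for miR-30c-5p, -2.19 to -1.28 for miR-30e-5p and -0.18 to 0.09 for miR-30a-5p, which turned positive without untreated replicate 3 (0.093), nicorandil replicate 2 (0.03) or nicorandil replicate 3 (0.06). The count of miRNAs higher, 17, was 4 on library totals, 6 with median-of-ratios and 7 with upper-quartile scaling, 9 in limma-voom, 4 without a trend, 5 in DESeq2 and 6 to 13 with 1 library left out, 6 without nicorandil replicate 2. The count lower, 9, was 5 with a mean of at least 10, 5 without a trend and 5 to 8 with 1 library left out, 5 without untreated replicate 2 or nicorandil replicate 2. miR-30c-5p over miR-30e-5p reversed with a pseudocount of 10 (-0.41) and ran from -0.62 to 0.56 with 1 library left out, with -0.26 without untreated replicate 1, -0.07 without untreated replicate 3 and -0.62 without nicorandil replicate 2. The cause of these changes was not tested. The replicate numbers do not pair the libraries (correlations of deviations 0.01, 0.04 and -0.03); a fit with a replicate block gave 0.79 for miR-30d-5p (limma adjusted p 0.00248) and -1.59 for miR-30c-5p (0.00886), and changed none of the members' calls. With untreated replicates 1 and 2 averaged to 1 sample, miR-30d-5p (0.70, limma adjusted p 0.03) and miR-30c-5p (-1.57, 0.0379) were still called. With a mean of at least 10, miR-30c-5p and miR-30e-5p were not tested. miR-30b-5p and miR-30e-5p had at most 3 reads in any library.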
